A study of Mus musculus with 8 samples.

Results

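The genes described here encode the subunits of potassium, voltage-gated calcium and voltage-gated sodium channels expressed in mouse pancreatic islets. They were chosen by name and level. They are the protein-coding genes whose symbol begins with Kcn, or with Cacna, Cacnb, Cacng or Scn followed by a digit, together with Abcc8 and Abcc9, and whose mean log2 CPM (counts scaled to the size of the library) over all 8 libraries was above 0. This gave 51 genes of the 12231 tested at that level and of the 13725 deposited. Of 136 such channel genes in the annotation, 63 were deposited, 12 of these were at or below the minimum, and 73 were not analysed here. The last gene inside the minimum was Kcnc1, with a mean of 0.10 log2 CPM, and the first outside it was Kcnh7, with -0.15.

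The libraries came from islets of 10-week-old females of the NOD strain, which is prone to autoimmune diabetes. There were 4 libraries of mice given vehicle (replicates 1, 3, 4 and 5) and 4 of mice given PAHSA (replicates 1, 2, 3 and 4), lipids in which palmitic acid is joined by an ester bond to a hydroxy stearic acid. The labels spell the treatment PASHA and the series text PAHSA, and no dose, duration or isomer is given in the sources used here. The design text counts 4 mice in each group while the protocol counts pools of 2 mice, so p-values measure the spread between libraries.

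Islet endocrine cells are electrically excitable. In beta cells at low glucose, open KATP channels, built from the pore subunit Kcnj11 and the sulfonylurea receptor Abcc8, hold the membrane near rest. Glucose metabolism closes them, voltage-gated calcium and sodium channels then carry the action potential, calcium entry releases insulin, and voltage-gated and calcium-activated potassium channels repolarise the cell. Alpha and delta cells use the same classes of channel in other proportions, and whole islets hold all of these cells.

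The feature that potassium channels share, and that lets potassium pass, is a short signature in the pore loop. It was searched as threonine or serine, then valine, isoleucine, threonine or leucine, then glycine, then tyrosine, phenylalanine or leucine, then glycine, in the longest coding sequence of each gene. All 25 potassium pore genes of the 51 held it, 4 of them (the two-pore-domain genes) at 2 places and 21 at 1, and 0 of the other 26 channel genes did. Over all tested coding genes it was found in 181 of 11752, or 1.54%. The residues allowed at each place were a choice of the search, so these counts are a description and not a test. The windows below are of genes described in the results and show how the signature differs between families. Each has 27 bases of coding strand, 5′ to 3′, from the GENCODE M21 transcripts (GRCm38), and capitals mark the 3 codons from glycine to glycine.
Kcnj11: caggtgaccattGGTTTCGGCgggcgc
Kcnk16, first pore: gtcaccaccataGGTTATGGAaacctg
Kcnk1, first pore: ctctccaccacaGGCTATGGCcacacg
Kcnk1, second pore: ctgagcaccatcGGCCTGGGGgactat
Kcnk12, first pore: gtgtcgaccataGGTTTCGGCatgaca
Kcnk12, second pore: ttcagcaccatcGGCTTCGGGgacctg
Kcnma1: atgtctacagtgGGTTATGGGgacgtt
Kcnh6: ctcactagtgtgGGCTTCGGCaatgtg
Kcnh8: ctcacaagcgttGGGTTTGGGaatgtg
The middle residue was tyrosine in 16 and phenylalanine in 8 of the 24 genes read, counting the first pore where there are 2. Phenylalanine stood in Kcnj11 (residues 132 to 134 of 390), in the 5 Kcnh genes, in Kcnu1 and in Kcnk12. The second pore of Kcnk1 had leucine. Kcnh6 and Kcnh8 had 21 of 27 bases and 9 of 9 residues in common. The first and second pores of Kcnk12 shared 6 of 9 residues and those of Kcnk1 5.

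The libraries carried the RNA of an islet. Ins2 was at 16.22 to 16.66 log2 CPM and Gcg at 15.88 to 16.29 in the 8 libraries, and the 10 beta cell markers took 13.7 to 18% of CPM in vehicle and 14.1 to 17.6% in PAHSA. Recovered estimated counts ranged from 34461742 to 45236238 a library, and log2 CPM correlated between pairs of libraries over genes with r from 0.824 to 0.937. Of the 10 beta cell markers 8 were higher in PAHSA. At an unadjusted p under 0.05 there were 3 (30%, all genes 7.31%), and 2 had groups that did not overlap (all genes 4.01%). The 10 alpha cell markers summed to 6.13 to 7.01% of CPM in vehicle and 6.72 to 8.13% in PAHSA. Of the 9 tested, 6 were higher and 3 lower, with 0 at that unadjusted level. Of the delta and PP cell markers tested, 4 of 5 and 4 of 4 were lower, with 1 and 0 at that level. Sums of acinar, duct and stellate markers overlapped between the groups. All 14 tested acinar markers were lower in PAHSA, 11 with an unadjusted p under 0.05 (78.6%, all genes 7.31%) and 0 with an adjusted p under 0.05. Genes of the same cell type can vary together, so they are not 14 separate observations. The list summed to 0.945 to 3.8% of CPM in vehicle and 0.0409 to 1.44% in PAHSA, with Rbpjl not analysed here. The 7 duct markers summed to 0.334 to 0.524% and 0.265 to 0.347%, and 10 stellate and pericyte markers to 0.00822 to 0.0314% and 0.00383 to 0.0143%. Of the 7 duct markers 5 were lower in PAHSA and 2 higher. At an unadjusted p under 0.05 by limma there were 3, all lower (42.9%, all genes 7.31%), and 2 had groups that did not overlap (all genes 4.01%). Of the 9 stellate and pericyte markers tested 8 were lower, with 1 at that level. The part of these cells in the channel values was tested only by a fit with the acinar or the stellate mean as a covariate. In such bulk RNA, fewer cells of a type and less RNA per cell cannot be told apart.

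Levels were compared between genes per kilobase of exon, counting every annotated exon of a gene, so a gene expressed from a shorter transcript reads too low. Shares and ratios per kilobase have the same limit. By this measure Abcc8 led the 51 genes with 133 CPM per kb, the 97.6th percentile of all genes tested. Kcnk1 and Kcnk16, which encode background potassium channels, followed with 39.3 and 24.5, and Kcnmb2, an auxiliary subunit of the large-conductance calcium-activated channel, with 21.1. Next came Kcnh6, a voltage-gated potassium pore, with 16.4, the potassium channel interacting protein Kcnip1 with 15.7 and Kcnj11 with 14.5. The leading calcium channel gene was the beta subunit Cacnb3, with 9.79 CPM per kb, and the leading calcium pore Cacna1a, with 4.30. Among sodium channel genes Scn9a led with 6.19. The lowest of the 51 was Kcnc1, with 0.209. The plot of levels shows a wide spread between libraries in the weaker genes.

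**Figure D1:**
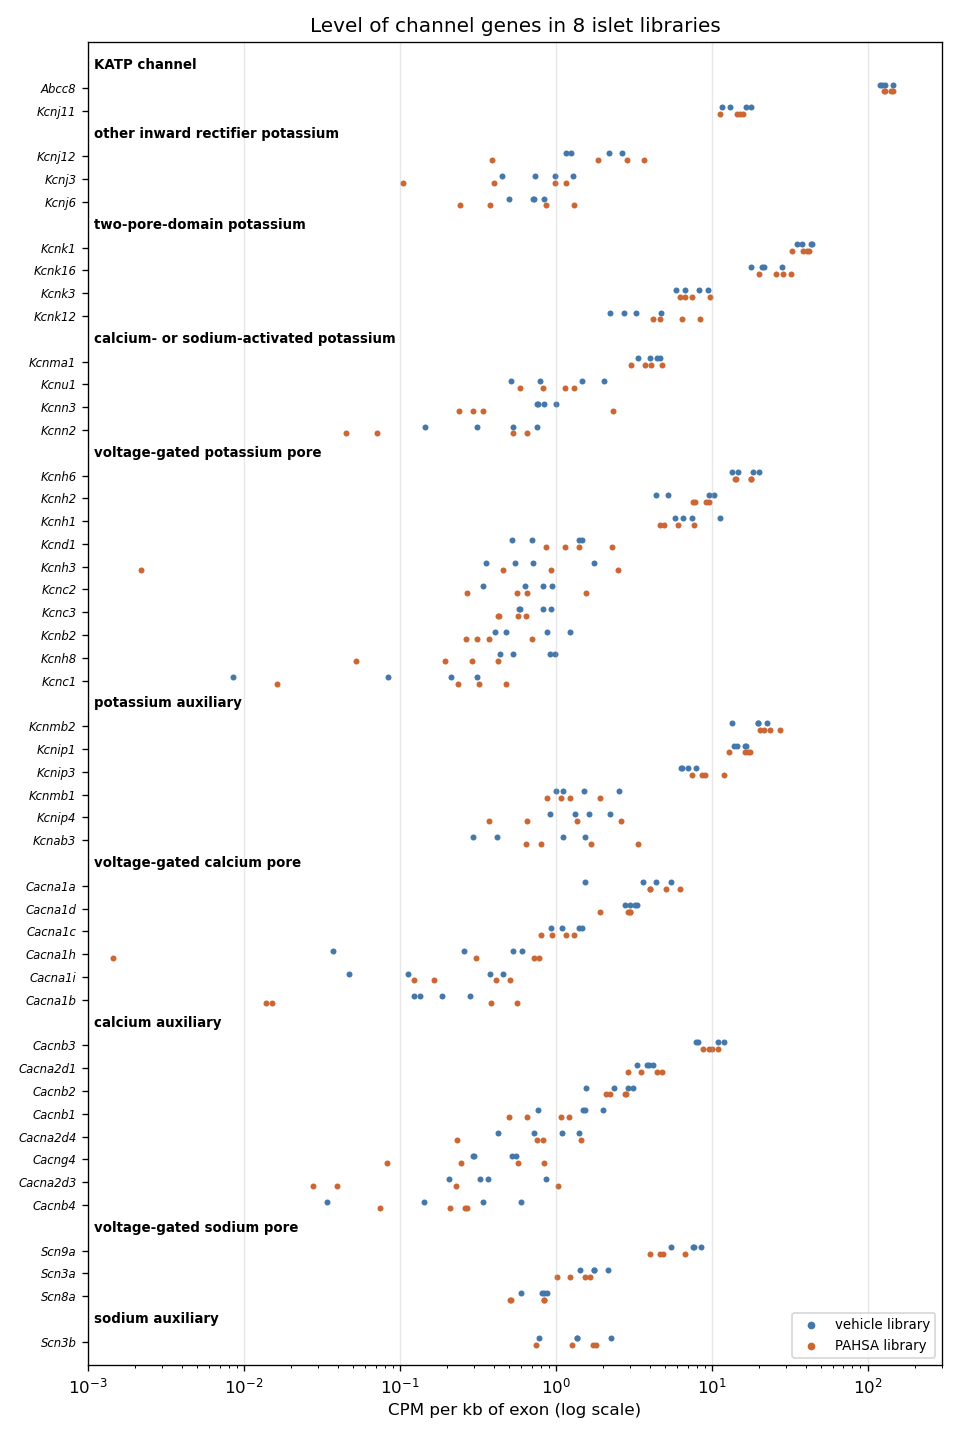
Level of 47 of the 51 channel genes in CPM per kb of exon (log axis), by family; each point is a library, 4 vehicle and 4 PAHSA. Abcc8 leads at 133 CPM per kb over all libraries, and the lone points at far left are Kcnh3 in PAHSA replicate 3 and Cacna1h in PAHSA replicate 2, at the lowest value of their library.

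Between PAHSA and vehicle, both genes of the KATP channel had a 95% interval within 1.5-fold of the vehicle level. So had 10 of the 51 channel genes in all, against 3841 of all 12231 genes. Of the 22 channel genes above 4 log2 CPM 10 had such an interval, against 3821 of all 7752 genes at that level. Among the genes at an unadjusted p under 0.05, Scn9a and Kcnh8 were lower in PAHSA and Kcnk12 higher. By limma, 0 of the 51 passed an adjusted p of 0.05 over all 12231 genes, as did 0.0% of all genes, and the smallest adjusted p was 0.671. At an unadjusted p under 0.05 there were 5 of 51 (9.8%) where all genes gave 7.31%. The 3 lower ones stood against a background of 4.29% and the 2 higher ones against 3.02%. Of the 51 differences 33 (64.7%) were below 0, against 50.9% of all genes, and the median was -0.08 log2 against -0.01. The 4 PAHSA libraries lay wholly apart from the 4 vehicle libraries in 1 gene, Kcnh8, while 4.01% of all genes were so separated.

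**Figure D2:**
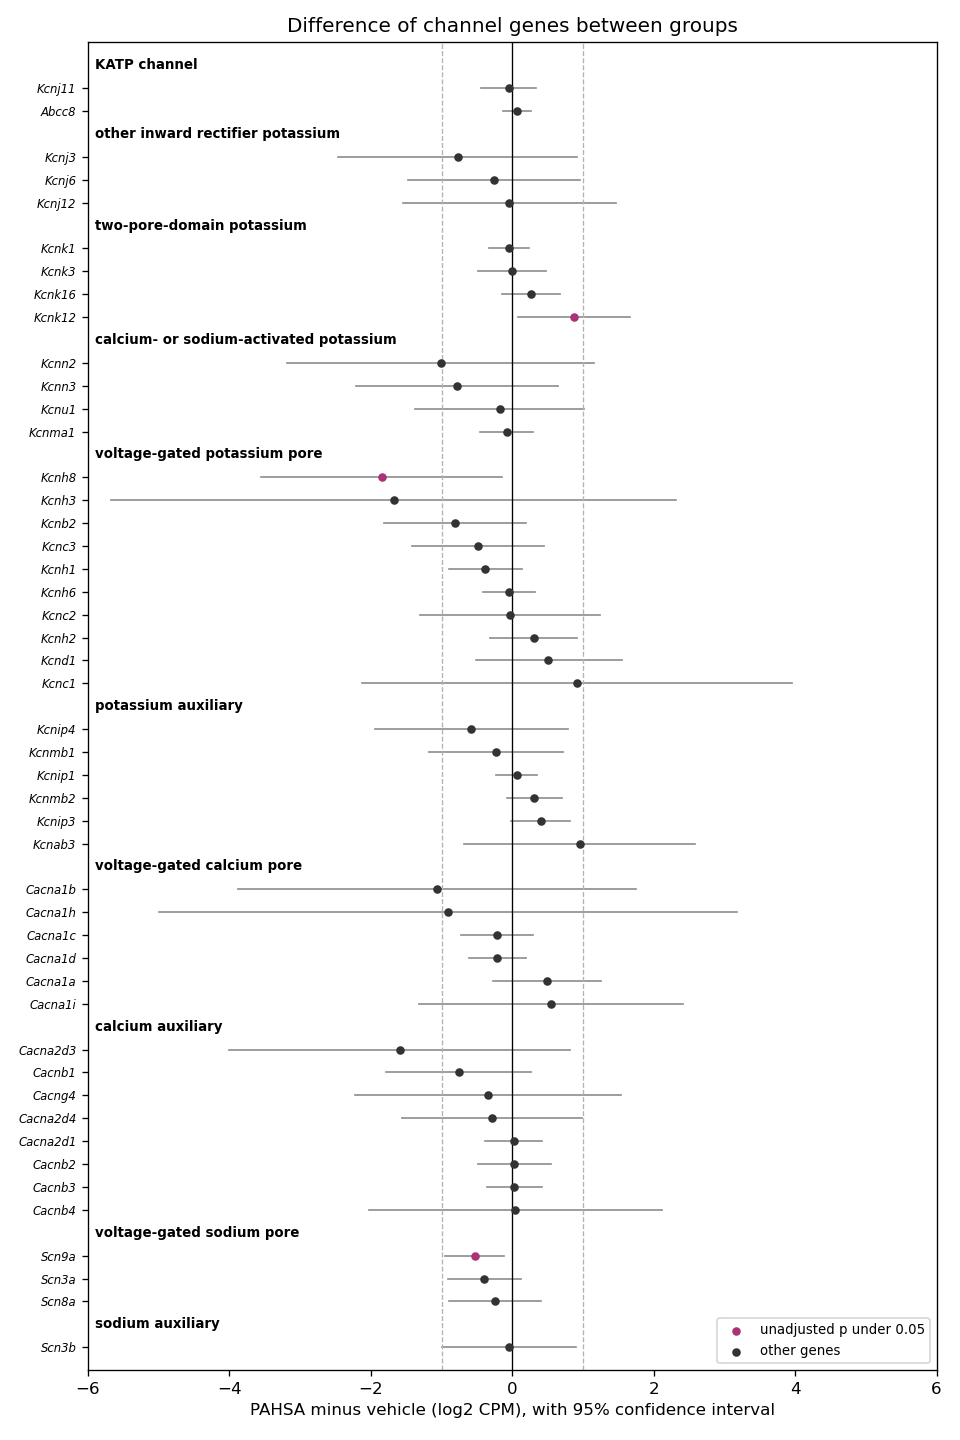
Difference between PAHSA and vehicle for 47 of the 51 genes (log2 CPM), with the 95% confidence interval from limma; dashed lines mark a 2-fold change. Of the genes shown, Kcnk12, Kcnh8 and Scn9a are at an unadjusted p under 0.05, and 0 of 51 passed over all genes.

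Abcc8, with the smallest SE of the 51 genes (0.09), is the KATP subunit that binds sulfonylureas. Abcc8 (ENSMUSG00000040136, chromosome 7 from 46104523 to 46180033, minus strand, GRCm38) was at 10.21, 9.97, 9.92 and 10.02 log2 CPM in vehicle replicates 1, 3, 4 and 5 and at 10.01, 10.03, 10.20 and 10.15 in PAHSA replicates 1 to 4. All 8 values lay within a narrow band and the groups overlapped. The PAHSA level was 1.05-fold the vehicle level, with a 95% interval from 0.915 to 1.20. Kcnj11 (ENSMUSG00000096146, chromosome 7 from 46093953 to 46100764), which lies 3758 bases from Abcc8 on the same strand, was at 5.42, 5.60, 6.04 and 5.93 in vehicle and 5.80, 5.74, 5.38 and 5.87 in PAHSA. Its lowest value was in PAHSA replicate 3 and its highest in vehicle replicate 4, with overlap between groups. The fold was 0.965, with an interval from 0.734 to 1.27. Per kilobase, Abcc8 exceeded Kcnj11 by 9.12 ± 2.59-fold in vehicle and 9.76 ± 2.09-fold in PAHSA (SD, n = 4). The assembled channel holds equal numbers of both subunits. The other KATP subunits, Abcc9 and Kcnj8, were low or outside the data. Abcc9 had a mean of -0.81 log2 CPM and was not tested, and Kcnj8 was not analysed here.

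The other inward rectifiers were Kcnj3 and Kcnj6, subunits of the channels that G proteins open after somatostatin or adrenaline, and Kcnj12. Kcnj6 was at 1.93 to 2.68 log2 CPM in vehicle and 0.89 to 3.33 in PAHSA, with a difference of -0.26 (SE 0.55). Kcnj3 differed by -0.77 (SE 0.76), or -0.05 without PAHSA replicate 2, where it was lowest at -0.87. Kcnj12 differed by -0.05 (SE 0.68), or 0.65 without PAHSA replicate 3. Without that library Kcnj6 was at 0.15, and at 0.41 with the stellate covariate. Of the 3 differences 0 passed at the unadjusted level. Of the 3 intervals 0 lay within 2-fold, so a 2-fold decrease was not excluded for any of these genes.

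Two-pore-domain channels carry a potassium leak that sets the resting potential. Kcnk16, an islet-enriched member, was at 5.41, 5.68, 6.07 and 5.65 log2 CPM in vehicle and at 5.94, 6.09, 6.27 and 5.57 in PAHSA. The PAHSA values included both the highest library and one below most vehicle libraries, and the difference was 0.27 (SE 0.19), or 0.57 with the acinar and -0.01 with the stellate covariate. Kcnk1 differed by -0.05 (SE 0.13) and the acid-sensitive Kcnk3 by -0.01 (SE 0.21).

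Kcnk12 (ENSMUSG00000050138, chromosome 17 from 87745801 to 87797994) encodes a member that gives little or no current by itself. It was at 3.22, 2.14, 2.69 and 2.44 log2 CPM in vehicle and at 4.06, 3.66, 3.05 and 3.20 in PAHSA. Vehicle replicate 1 lay above PAHSA replicates 3 and 4, so the groups overlapped. The difference was 0.87 (SE 0.36, unadjusted p = 0.0343, limma adjusted p = 0.671), and 0.68 to 1.07 when each library was left out in turn.

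As a share of the summed CPM per kb of this family, Kcnk1 made up 54.7, 54.1, 53.5 and 56.6% in vehicle and 49.4, 50.2, 45.2 and 51.6% in PAHSA, so that the groups did not overlap, while Kcnk12 made up 4.54 ± 1.87% and 7.53 ± 2.17% (SD, n = 4). This share was singled out after its values were seen and was not tested. Of 34 such shares in 5 families, 2 did not overlap between groups, those of Kcnk1 and Kcnh8 (5.88%, where 4.01% of all genes had groups that did not overlap in level).

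The next 4 genes were grouped by symbol as calcium- or sodium-activated potassium channels, which does not show how each is gated. Kcnn4, Kcnt1 and Kcnt2 of this group were not analysed here. Kcnma1, the large-conductance pore, was at 6.10, 6.25, 5.83 and 6.30 log2 CPM in vehicle and 5.68, 6.35, 6.12 and 5.98 in PAHSA. The groups overlapped over most of their range, with a fold of 0.943 (95% interval 0.729 to 1.22). Kcnn3, a small-conductance calcium-activated pore, was at 3.13, 2.98, 3.39 and 3.01 in vehicle and at 4.61, 1.62, 1.33 and 1.83 in PAHSA. PAHSA replicate 1 stood above all vehicle libraries and the other 3 below them. The difference was -0.78 (SE 0.65, unadjusted p = 0.252 by limma), and it ranged from -1.54 without PAHSA replicate 1 to -0.44 without PAHSA replicate 3. Kcnn2 differed by -1.01 (SE 0.98), or 0.62 in the fit with the stellate covariate. Kcnu1, best known from sperm and placed here only by its symbol, differed by -0.18 (SE 0.54). All 4 differences of the family were below 0 and 0 passed at the unadjusted level.

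Voltage-gated potassium pores were the largest family, with 13 genes, 5 higher and 8 lower in PAHSA and a median of -0.05. The Kcnh genes Kcnh6 and Kcnh2, of the ether-a-go-go related type, made up 39.8 ± 3.26% and 17.3 ± 5.66% of the summed CPM per kb of these pores in vehicle and 38.8 ± 6.08% and 20.6 ± 1.16% in PAHSA. Their differences in level were -0.05 (SE 0.17) and 0.30 (SE 0.28), the latter 0.08 without vehicle replicate 4. Kcnh1 differed by -0.39 (SE 0.23).

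Kcnh8 (ENSMUSG00000035580, chromosome 17 from 52602709 to 52979194) encodes a pore of the ether-a-go-go like type. It was at 2.17, 0.99, 2.06 and 1.28 log2 CPM in vehicle and at -0.17, -2.07, 0.40 and 0.96 in PAHSA. PAHSA replicate 4 lay just under the lowest vehicle library, and PAHSA replicate 2 far under all others. The difference was -1.84 (SE 0.77, unadjusted p = 0.0367, limma adjusted p = 0.671), and -1.23 without PAHSA replicate 2. Kcnb2, a delayed rectifier named after its values were seen, was at 2.86, 3.73, 4.22 and 2.62 in vehicle and at 2.02, 2.49, 3.42 and 2.24 in PAHSA. The groups overlapped, and the difference was -0.81 (SE 0.45, unadjusted p = 0.102, limma adjusted p = 0.732).

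**Figure D3:**
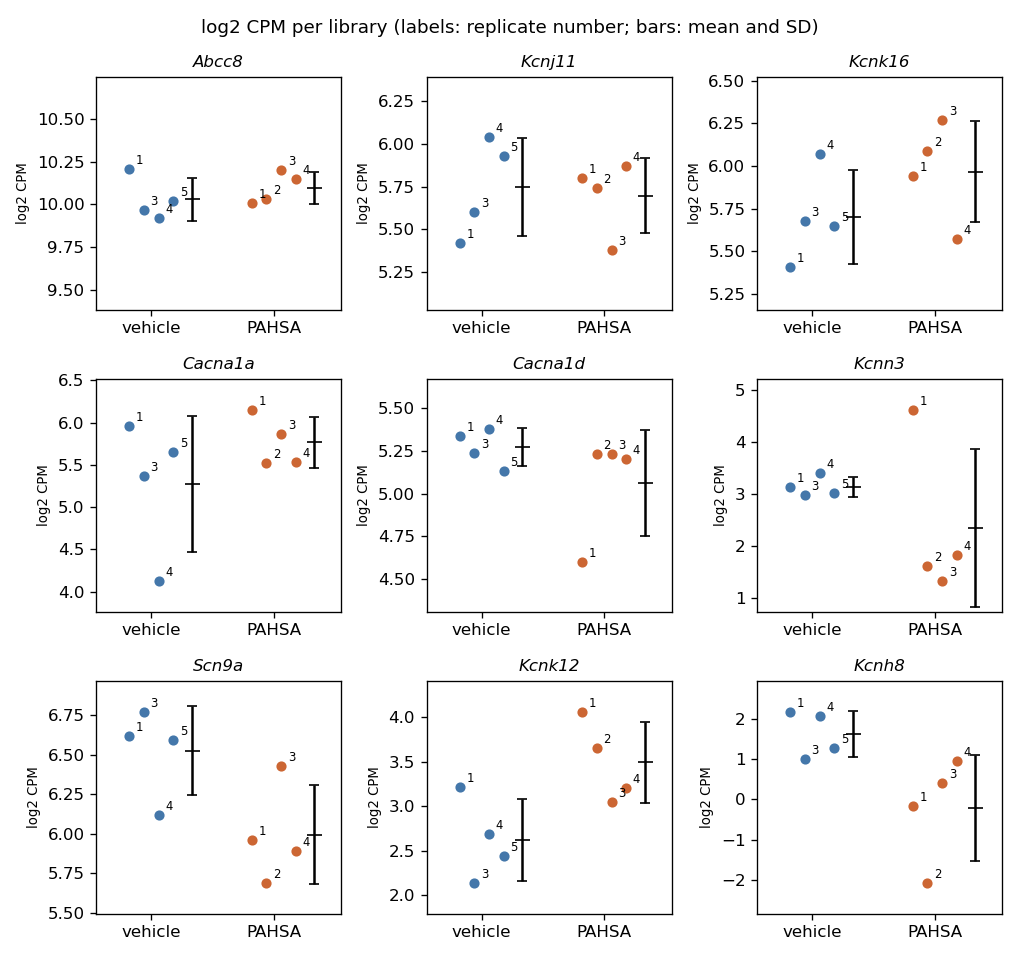
Values of 9 channel genes in log2 CPM in each library; numbers are the replicate, and bars give the mean and SD of 4 libraries. Abcc8 and Kcnj11 overlap between groups, Kcnn3 and Cacna1d have PAHSA replicate 1 far from the other 3, and only Kcnh8 of these 9 genes has groups that do not overlap.

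Auxiliary potassium subunits included 4 higher and 2 lower genes. Kcnip3, a calcium-binding protein of the family that modulates A-type channels and also acts in transcription, was at 4.82, 4.52, 4.50 and 4.65 log2 CPM in vehicle and at 4.95, 5.41, 5.0 and 4.73 in PAHSA. Only vehicle replicate 1 overlapped the PAHSA range, and the difference was 0.40 (SE 0.19, unadjusted p = 0.06, limma adjusted p = 0.687). Kcnmb2 was at 5.40 to 6.15 in vehicle and 6.0 to 6.42 in PAHSA, a difference of 0.31 (SE 0.18), or 0.16 without vehicle replicate 5. Kcnip1 differed by 0.06 (SE 0.13) and Kcnab3 by 0.95 (SE 0.74). Kcnip1 and Kcnmb1 overlap by 10629 bases on opposite strands of chromosome 11, where no exon of either gene coincides with one on the other strand.

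Voltage-gated calcium channels trigger hormone release. Of the L-type pores, Cacna1d was at 5.34, 5.24, 5.38 and 5.13 log2 CPM in vehicle and at 4.60, 5.23, 5.23 and 5.20 in PAHSA. PAHSA replicates 2 to 4 lay inside the vehicle range and replicate 1 below it, and the difference of -0.21 (SE 0.18) became -0.05 without that library. Cacna1c was at 4.31 to 4.96 in vehicle and 4.09 to 4.79 in PAHSA, a difference of -0.22 (SE 0.23). The P/Q-type pore Cacna1a was at 5.96, 5.37, 4.13 and 5.65 in vehicle and at 6.15, 5.52, 5.87 and 5.53 in PAHSA. Vehicle replicate 4 was low against all 7 others, and the difference of 0.49 (SE 0.34) was 0.11 without it.

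Cacna1a and Cacna1d together made up most of the calcium pore signal per kilobase in every library. Cacna1a made up 40.9 ± 13.7% in vehicle and 50.6 ± 11.1% in PAHSA (SD, n = 4). Its share was lowest in vehicle replicate 4, at 21.6%, and highest in PAHSA replicate 1, at 66.2%. Cacna1d made up 35.6 ± 7.36% and 28.0 ± 5.20%. The N-type Cacna1b and the T-type Cacna1h and Cacna1i were weak, each under 0.5 CPM per kb over all libraries, and the R-type Cacna1e was below the minimum with a mean of -0.58 log2 CPM.

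Among the auxiliary calcium subunits, beta subunits bring the pore to the membrane and alpha2delta subunits raise its surface level. Cacnb3 made up 69.4 ± 7.35% of the summed CPM per kb of the 4 Cacnb genes in vehicle and 73.6 ± 1.0% in PAHSA. That share rests on exon length, as the means of Cacnb3 and Cacnb2 were 5.28 and 5.01 log2 CPM over 4010 and 13228 bases. The level of Cacnb3 differed by 0.03 (SE 0.18), as did that of Cacnb2 (SE 0.23), and that of Cacna2d1 by 0.02 (SE 0.18). The 95% intervals of these 3 genes all lay within 1.5-fold. Cacnb1 was at 2.75, 2.80, 1.81 and 3.18 log2 CPM in vehicle and at 2.47, 1.18, 2.28 and 1.57 in PAHSA, a difference of -0.76 (SE 0.46). Cacna2d3 differed by -1.59 (SE 1.09), with values from -2.05 to 3.17 within PAHSA alone, and by -0.86 without PAHSA replicate 1 and -0.16 with the acinar covariate. Cacna2d4 differed by -0.29 (SE 0.58), or 0.70 with the acinar and -1.54 with the stellate covariate.

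Voltage-gated sodium channels start fast action potentials. The differences of all 3 pores were below 0, as were those of 50.9% of all genes, and 1 of the 3, Scn9a, was at an unadjusted p under 0.05. Scn9a (ENSMUSG00000075316, chromosome 2 from 66480080 to 66634962), the pore known from pain-sensing neurons, was at 6.62, 6.77, 6.12 and 6.59 log2 CPM in vehicle and at 5.96, 5.69, 6.43 and 5.89 in PAHSA. PAHSA replicate 3 lay within the vehicle range and the other 3 below all vehicle libraries. The fold was 0.690 (95% interval 0.518 to 0.920, unadjusted p = 0.0163, limma adjusted p = 0.671), and the difference ranged from -0.68 to -0.43 without 1 library. An annotated gene on the other strand, Gm13629, shares exon positions with Scn9a. The kit does not mark strand, and 18 of the 51 channel genes had such an overlap, among them Cacna1a, Cacna1d, Kcnma1 and Kcnk1.

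Scn3a was at 4.46, 4.46, 4.15 and 4.75 in vehicle and at 4.26, 3.94, 4.36 and 3.67 in PAHSA, a difference of -0.40 (SE 0.23). Scn8a was at 3.79, 3.68, 3.23 and 3.72 in vehicle and at 3.02, 3.73, 3.72 and 3.01 in PAHSA, a difference of -0.24 (SE 0.29), or -0.03 with the acinar covariate. In both genes the groups overlapped. The summed CPM per kb of the 3 pores was 10.3, 11.1, 7.47 and 10.5 in vehicle and 6.92, 6.11, 9.23 and 6.16 in PAHSA, with vehicle replicate 4 and PAHSA replicate 3 in each other's range. Scn9a made up 73.9 ± 2.23% of that sum in vehicle and 71.2 ± 3.94% in PAHSA. The beta subunit Scn3b differed by -0.05 (SE 0.43). Scn3a and Scn9a lie 912452 bases apart on chromosome 2.

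**Figure D4:**
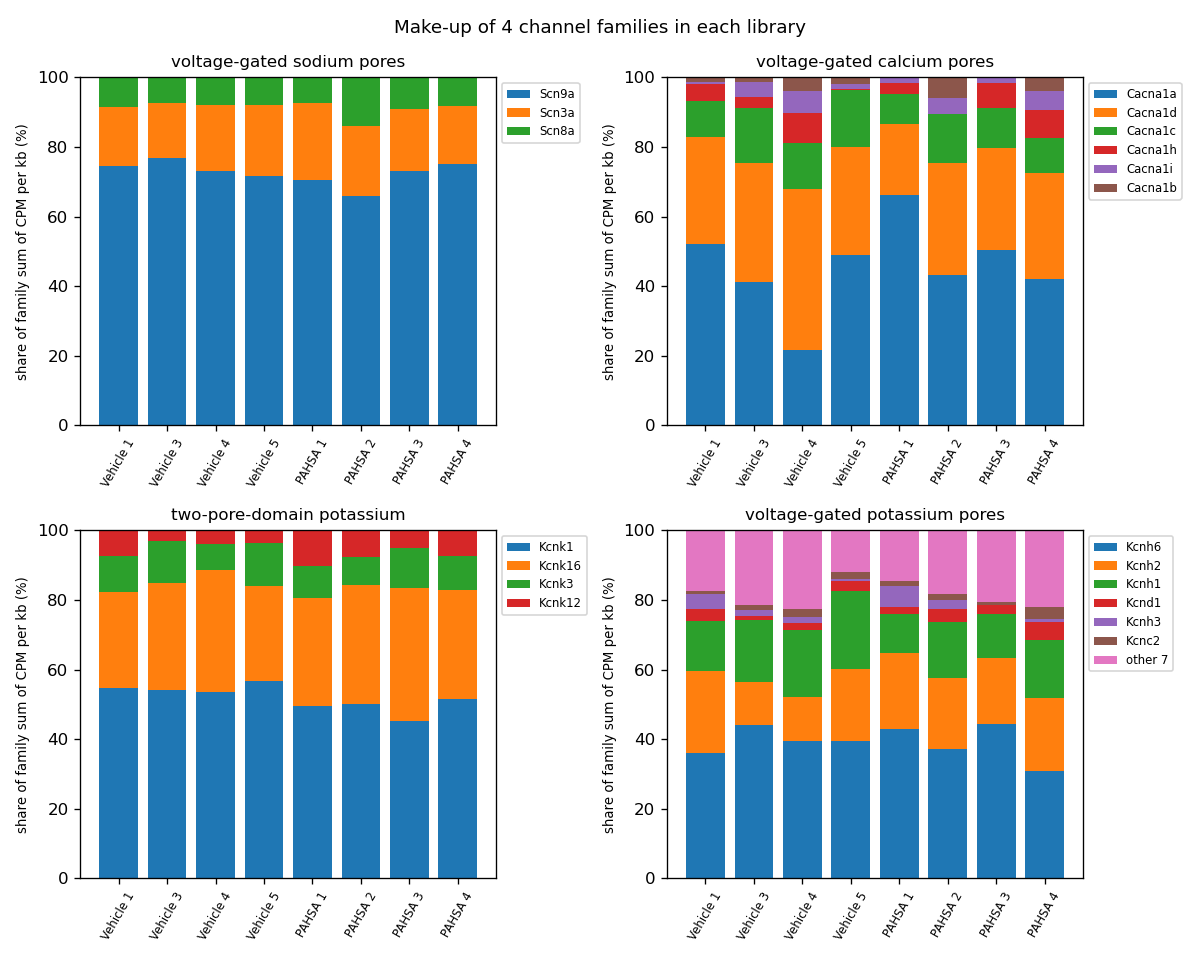
Shares of genes in the summed CPM per kb of 4 channel families, in percent, for each of the 8 libraries. Among the voltage-gated potassium pores, some genes are drawn singly and the rest are pooled as other. Scn9a makes up 66.0 to 76.8% of the sodium pores in every library, and the Kcnk1 share is 53.5 to 56.6% in vehicle and 45.2 to 51.6% in PAHSA.

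Precision followed expression level. Of the 22 channel genes above 4 log2 CPM, 20 (90.9%) had a 95% interval within 2-fold either way, and all tested genes above that level gave 89.6%. Their median SE was 0.19 in both cases, and 11 of the 22 were higher and 11 lower. Of the 15 genes from 2 to 4 log2 CPM, 3 had such an interval (against 29.2% of all genes of that level), and of the 14 weaker ones 0 had (against 0.828%). Over all 51 the count was 23 (45.1%), where all genes gave 63.8%. The excess of lower differences lay in the weaker genes, with 12 of 15 and 10 of 14 below 0, where all genes at those levels gave 51.5% and 59.2%. The plot of SE by level places the channel genes along the same band as the rest.

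**Figure D5:**
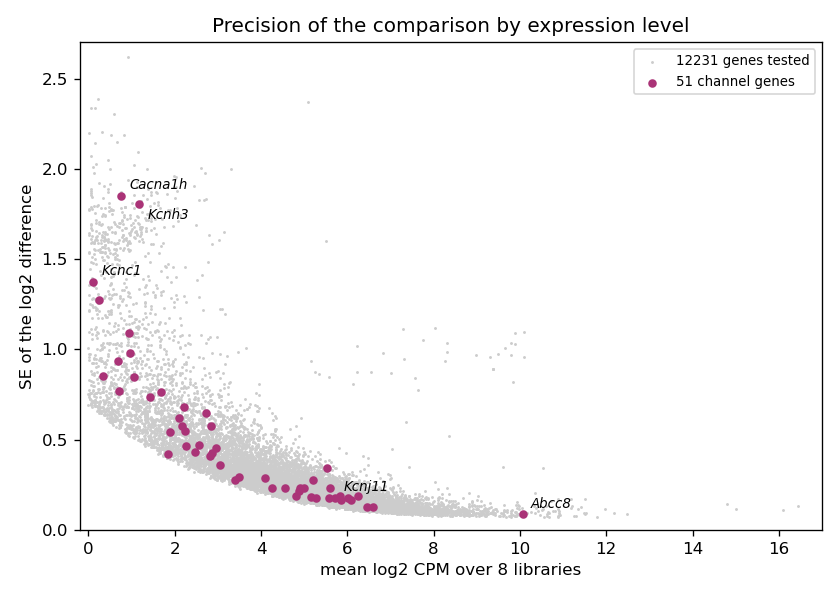
SE of the log2 difference between PAHSA and vehicle against mean log2 CPM over 8 libraries, for all 12231 genes tested (grey) and the 51 channel genes (coloured). The channel genes run from an SE of 0.09 (Abcc8) to 1.85 (Cacna1h), and the SE is large where the level is low.

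Other genes of membrane transport were taken from 4 lists, and by limma 0 of their genes passed over all genes. Of 39 other plasma membrane channels 19 were higher and 20 lower, with 3 (7.69%) at an unadjusted p under 0.05, all lower, where all genes gave 7.31% in either direction and 4.29% lower. Ano1, a calcium-activated chloride channel, was at 3.29, 3.19, 3.0 and 2.76 log2 CPM in vehicle and at -6.19, 1.80, 2.08 and -6.32 in PAHSA, so that 2 PAHSA libraries were at or near the lowest value of their column. The acinar markers were also lowest in these 2 libraries. The difference of Ano1 was -5.22 (SE 1.87), and -2.11 in the fit with the acinar covariate, which differs between the groups, so that the part of acinar RNA and of the treatment cannot be told apart. Lrrc8b, a volume-regulated anion channel subunit, differed by -1.45 (SE 0.50), or -0.92 without PAHSA replicate 4 and -0.65 with the acinar covariate. The third gene was Ttyh1, named after its values were seen, with -0.52.

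Of 30 genes of calcium stores, store-operated entry, pumps and exchangers, 15 were higher and 15 lower, with 2 (6.67%) at the unadjusted level. Mcoln1, a cation channel of lysosomes, was at 5.90, 5.34, 5.56 and 6.08 log2 CPM in vehicle and at 6.40, 6.25, 6.11 and 6.39 in PAHSA, with every PAHSA library above every vehicle library. The difference was 0.57 (SE 0.17, unadjusted p = 0.0071, limma adjusted p = 0.671). Orai2, a subunit of store-operated calcium channels, differed by -0.50 (SE 0.21). Of 8 genes of the sodium-potassium pump and its regulators, 4 were higher and 4 lower, with 0 at the unadjusted level. The pump regulator Fxyd5 differed by -0.72 (SE 0.34). Of 26 channel partners, 9 were higher and 17 lower, with 1 (3.85%) at that level. Sptbn4, a spectrin that anchors sodium channels in neurons, differed by 0.52 (SE 0.21, unadjusted p = 0.0293, limma adjusted p = 0.671), and the ubiquitin ligase Nedd4l, which limits sodium channels at the membrane, by -0.32 (SE 0.16).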

How the data were processed

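Islet RNA libraries, 4 vehicle and 4 PAHSA, were prepared, per the labels' protocols, with a Nextera XT kit, which does not mark strand. The authors deposited log2 CPM for 13725 genes. kallisto and limma are named in the submitters' processing notes without versions, and the genome build is not given in the sources used here. Reads that fit several similar transcripts are divided among them by kallisto. The step between the lowest repeated values fits 0.5 added counts, and 47.8 to 51.5% of the counts recovered from it lay within 0.01 of a whole number, so the values were not treated as read counts.

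Names, exon lengths and positions came from GENCODE M21 (GRCm38) by Ensembl identifier, with 49 unmatched. Exon length was the union of the exons of all annotated transcripts of a gene. Genes with a mean log2 CPM above 0 were tested with limma 3.58.1 in R 4.3.3 (lmFit, eBayes with trend, group as the only term, two-sided, Benjamini-Hochberg over 12231 genes, threshold 0.05), and the script was tested on simulated data. Differences are PAHSA minus vehicle. The added counts set the lowest value of a library, and in weak genes a single library there can make a log2 difference large. Kcnh3 differed by -1.68, with PAHSA replicate 3 at -6.31, while its mean CPM per kb was 0.847 in vehicle and 0.977 in PAHSA. Members and lists were chosen with earlier results of these data known. Named genes were a fixed set of islet channel genes, the 3 smallest p and the highest CPM per kb of each family, members whose groups did not overlap, and the 2 smallest p of each list. Other members were named, after their values were seen, to complete a family or an order of levels. Alternatives are given in the closing section. Some genes stay in the counts but are not reported here singly.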

Additional observations from a re-analysis of the deposited data

Results flagged for a closer look

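Among the named genes, 86 groups of 4 libraries were checked for a library far from the other 3, by Dixon's ratio at its 95% critical value. Chance flags about 1 in 20 groups, or 4.3 of 86, and 2 were found, both in PAHSA replicate 1. Kcnn3 was at 4.61 log2 CPM there and at 1.33 to 1.83 in the other 3 PAHSA libraries. Cacna1d was at 4.60 log2 CPM there and at 5.20 to 5.23 in the others.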

How the results depend on the processing

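Under 10 alternative settings and 8 fits without 1 library, 0 channel genes and 0 of all genes passed the adjusted threshold in limma. The count of channel genes at an unadjusted p under 0.05 was 5, and 4 to 6 under log2 of CPM plus 1, no filter, a minimum of 2, no trend, quantile normalization, rescaled columns and the acinar covariate. It was 3 with the stellate covariate and 3 to 7 without 1 library, with 3 without vehicle replicate 3 and 3 without vehicle replicate 5. The median difference, -0.084, was -0.167 with the stellate covariate and -0.186 to -0.038 without 1 library. Same-numbered libraries did not deviate together (correlations of -0.02, -0.02 and -0.02, and 0 of 3 matched best with its own number). The best matches with any number reached only 0.03 to 0.05, so shared handling of same-numbered libraries cannot be judged from these values. The replicate block on the 6 libraries with shared numbers gave 2 channel genes and a median of -0.016, and the same 6 without the block gave 1 and -0.016. Of 43 named genes, 28 kept their sign in every alternative run and 15 changed it in at least 1, among them Kcnj11, Cacnb2, Cacnb3, Cacna2d1 and Kcnk1. Scn9a, Kcnk12 and Kcnh8 kept theirs, but their largest unadjusted limma p without 1 library was 0.0516, 0.104 and 0.103. Quantile normalization moved the difference of Abcc8 from 0.07 to 0.26. For the channel genes up to 2 log2 CPM the median SE was 0.89, and the part of depth in it was not tested.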
